A study of Mus musculus with 8 samples.

Results

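The skeletal muscle contractile genes are 38 genes that encode the sarcomere of striated muscle and the calcium and energy systems that serve it. They were picked by gene symbol, with no threshold on a measured value but with earlier results of these data known, and all 38 were measured among 22180 genes. Each gene was read from the probe set with the highest mean level among those naming that gene alone. For 36 members there was 1 such probe set, and for Ckm and Ryr1 there were 2.

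The values come from total RNA of mouse dorsal skin on 8 Affymetrix expression arrays, with 1 array for each title. WT arrays are from male C57BL/6 mice. KO arrays are from male mice labelled B6.Cg-Il22ra1tm1.1Koll/J, which carry a targeted allele of Il22ra1, the alpha chain of the IL-22 receptor. The sources used here do not say if the allele is a conditional one or which cells have lost the gene, and they give no age. Titles with IMQ stand for imiquimod, an agonist of Toll-like receptors that induces psoriasis-like inflammation, put on dorsal skin and ears as 83.3 mg of 5% cream every day from day 1 to day 7. A vehicle cream or a cream with alloferon, a peptide first described in insects, followed after 6 hours. Titles with Allo stand for alloferon. What the letter B stands for is not stated in those sources. The study states 4 mice in each group, with no word on pooling of their RNA for an array.

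The 8 arrays form 4 pairs that differ in IMQ: WT_CTRL with WT_IMQ (WT pair), KO_CTRL with KO_IMQ (KO plain pair), KO_CTRL-B with KO_IMQ_B (KO B pair) and KO_Allo with KO_IMQ_Allo (KO Allo pair). All levels below are log2 values, so a difference of 1 is 2-fold. Array medians differed by 0.05 at most. Il22ra1 measured 8.59 to 9.40 on the 6 arrays labelled KO, against 8.23 (WT_CTRL) and 8.64 (WT_IMQ). Its level therefore does not check the KO label, and the genotype rests on the titles, in every comparison of WT with KO below. In a piece of skin, fewer muscle fibres and less RNA per fibre cannot be told apart.

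Striated muscle shortens when myosin heads of the thick filament pull on actin of the thin filament, and troponin on the thin filament opens the way when calcium arrives. Fibres differ by the myosin heavy chain they make: Myh7 marks slow fibres, Myh2 fast oxidative fibres, Myh1 an intermediate fast type and Myh4 the fastest, most glycolytic fibres. Mouse skin carries such muscle as the panniculus carnosus, a thin sheet of mainly fast fibres below the fat layer.

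Promoters are shown for 5 members whose values the results turn on. Myh2, Myh1 and Myh4 are neighbouring genes of the fast myosin cluster on chromosome 11, and their profiles over the arrays are described below. Acta1, skeletal muscle actin, followed the typical member closely, and Myoz2, a Z disc protein of slow fibres, did not. Each line gives the 150 bases before the start of the gene in GRCm38.p6, from RefSeq, read 5′ to 3′ on the strand of the gene. Capitals mark 4 motifs searched on both strands, with overlaps allowed: the E-box CANNTG bound by myogenic factors such as MyoD, TATAAA, the MEF2 site and the CArG box bound by serum response factor. Myh2 lies at chr11:67170877-67171026, Myh1 at chr11:67199952-67200101 and Myh4 at chr11:67237662-67237811, all on the plus strand. Myoz2 lies at chr3:123034988-123035137 and Acta1 at chr8:123894776-123894925, both on the minus strand.
Myh2: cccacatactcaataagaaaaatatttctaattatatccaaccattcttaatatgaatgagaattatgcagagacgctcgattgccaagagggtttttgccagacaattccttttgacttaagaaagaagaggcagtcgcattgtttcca
Myh1: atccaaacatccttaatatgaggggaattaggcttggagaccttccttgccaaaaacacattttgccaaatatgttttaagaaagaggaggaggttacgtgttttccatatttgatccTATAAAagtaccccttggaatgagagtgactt
Myh4: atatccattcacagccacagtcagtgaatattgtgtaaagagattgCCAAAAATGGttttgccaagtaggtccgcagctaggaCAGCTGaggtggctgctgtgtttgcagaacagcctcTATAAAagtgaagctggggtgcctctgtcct
Myoz2: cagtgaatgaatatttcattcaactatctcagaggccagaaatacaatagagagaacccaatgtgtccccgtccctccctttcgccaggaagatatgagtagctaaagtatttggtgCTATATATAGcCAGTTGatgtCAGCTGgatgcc
Acta1: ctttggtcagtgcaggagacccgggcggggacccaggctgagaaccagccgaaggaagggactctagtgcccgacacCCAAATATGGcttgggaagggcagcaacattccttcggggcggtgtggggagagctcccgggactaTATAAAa
The Myh2 window held none of the 4 motifs, the Myh1 window held TATAAA alone, and the Myh4 window held an E-box, TATAAA and a CArG box. The Myoz2 window held a MEF2 site and 2 E-boxes. RefSeq promoter entries matched 29 of the 38 members; Tnnt3, Tnni2, Neb, Actn3, Myoz1, Tcap, Myot, Trdn and Cox6a2 had no match. The 29 had 36 entries, since some genes have several starts. An E-box was in 22 of the 36 (61.1%), against 47.7% of 32851 promoter entries of the same length. TATAAA was in 5 (13.9%, against 7.57%), a CArG box in 5 (13.9%, against 0.916%) and a MEF2 site in 1 (2.78%, against 0.332%). Entries of the same gene can overlap. Counted by gene, an E-box was in 18 of the 29, TATAAA in 5, a CArG box in 4 and a MEF2 site in 1. These matches are letters in a window and were not tested against the levels.

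The muscle genes were highest on 2 of the 8 arrays, WT_CTRL and KO_CTRL. The median level of the 38 members was 9.85 on WT_CTRL and 10.19 on KO_CTRL. It was 7.98 on KO_CTRL-B and 7.90 on KO_Allo, whose titles also lack IMQ. On the arrays with IMQ it was 7.99 on WT_IMQ, 7.87 on KO_IMQ, 7.37 on KO_IMQ_B and 7.38 on KO_IMQ_Allo. The arrays without IMQ therefore did not form 1 group: KO_CTRL-B and KO_Allo lay with the IMQ arrays.

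For 29 of the 38 members, both WT_CTRL and KO_CTRL lay above each of the other 6 arrays, a pattern that 9.26% of all genes showed. The 9 members without it were Myh2, Myh7, Myl2, Myl3, Tnnt1, Tnni1, Tnnc1, Actn2 and Myoz2. The highest value was on KO_CTRL for 29 members, and on WT_CTRL for Myh1, Myl2 and Tnni1. The lowest value was on KO_IMQ_Allo for 17 members, on WT_IMQ for 9 and on KO_IMQ_B for 8. The range over the 8 arrays had a median of 2.43 among members, against 0.55 among all genes. It went from 0.22 for Tnni1 to 7.25 for Myh4, and 9 of 22180 genes had a range of 7 or more.

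**Figure D1:**
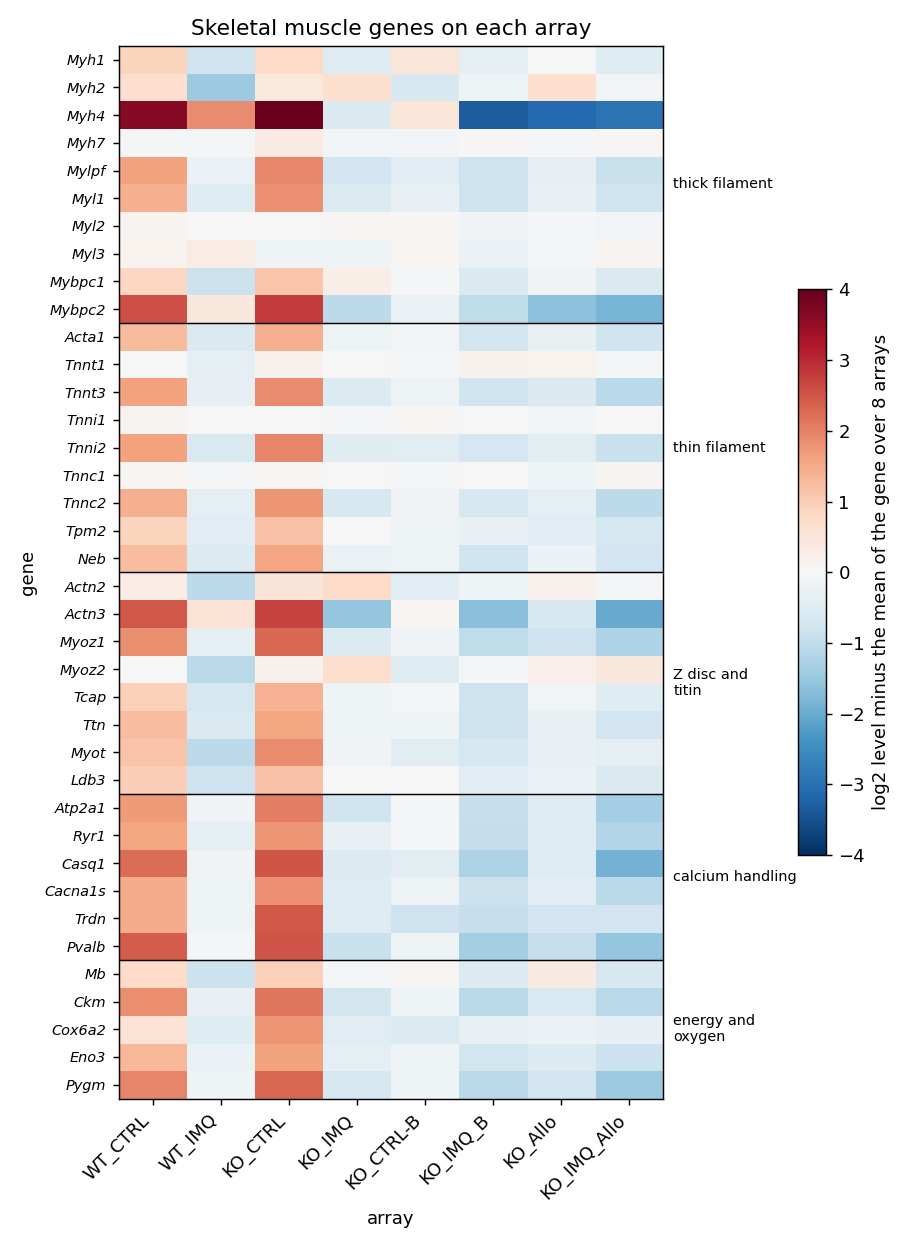
Log2 level of each of the 38 muscle genes (vertical axis, by role) on each of the 8 arrays (horizontal axis), as the difference from the mean of that gene over the arrays (colour). The WT_CTRL and KO_CTRL columns are red for 29 genes that lie above all other arrays there, and the rows of Myh7, Myl2, Myl3, Tnnt1, Tnni1 and Tnnc1 are nearly white, each with a range under 1.

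With IMQ, the member median was below 0 in each of the 4 pairs. The median difference of the 38 members was -1.80 in the WT pair, -2.00 in the KO plain pair, -0.55 in the KO B pair and -0.46 in the KO Allo pair. In the WT pair 32 members were lower by 1 or more, against 2.12% of all genes. In the KO plain pair 28 were (all genes 2.22%), in the KO B pair 3 (Myh4, Actn3 and Pvalb; all genes 1.29%) and in the KO Allo pair 3 (Actn3, Casq1 and Mb; all genes 0.938%). No member was higher by 1 or more in any of the 4 pairs, where 2.5%, 2.69%, 1.83% and 0.771% of all genes were. Of the 38, 26 were lower in all 4 pairs, as were 14.3% of all genes. These single pairs have no replicate check.

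Over the 4 pairs together, 5 of 38 members fell and 0 rose in limma with Benjamini-Hochberg adjustment over all genes, at an adjusted p under 0.05. Of all genes, 1.19% fell and 1.9% rose. The 5 were Ryr1, the calcium release channel of the sarcoplasmic reticulum (-1.40 ± 0.25, adjusted p = 0.0416 in limma), Casq1, its calcium store protein (-1.90 ± 0.35, 0.0428), Mb, myoglobin (-1.06 ± 0.17, 0.03), Myh1 (-1.09 ± 0.19, 0.0395) and Actn3 (-2.32 ± 0.45, 0.049). The ± values are standard errors from limma over n = 4 pairs. The median difference of all 38 was -1.16, against -0.01 for all genes, and 28 members had an unadjusted p under 0.05 in limma (18.8% of all genes). With the pair as a random block, with no level per pair, or with a trended robust prior, 2 members were called. Leaving out the WT pair or the KO B pair left 0 members called, and leaving out the KO plain pair left 1. Leaving out the KO Allo pair gave 19.

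A second fit of all 8 arrays had 1 IMQ term for the 2 plain pairs and 1 for the B and Allo pairs. For the plain pairs, 28 of 38 members fell and 0 rose in limma. The errors and p-values of both terms pool the spread of the plain pairs with that of the B and Allo pairs. They are not the spread of the plain pairs alone. Of all genes, 1.53% fell and 1.7% rose. The median difference of the members was -1.80, against -0.01 for all genes. The call covered all 6 calcium handling and all 5 energy and oxygen members, 6 of 8 of the Z disc, 6 of 9 of the thin filament and 5 of 10 of the thick filament. The 10 members not called were Myh2, Myh4, Myh7, Myl2, Myl3, Tnnt1, Tnni1, Tnnc1, Actn2 and Myoz2. Without the KO plain pair 0 members were called, and without the WT pair 20 were (n = 2 pairs in the full fit). Each of these runs has 1 plain pair, so its error comes from the B and Allo pairs and the prior over genes. This split of the pairs was chosen with the pattern known.

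In the B and Allo pairs 0 of 38 members were called in limma, with a median difference of -0.50, 31 of 38 below 0 and 19 at an unadjusted p under 0.05 (10.4% of all genes). A trended and robust prior in limma also called 0. Of all genes, 0 fell there and 1 rose (0.00451%). The difference between the plain pairs and the B and Allo pairs had a median of -1.29 over members. In limma 26 members had an unadjusted p under 0.05 for it (6.36% of all genes), and 0 members and 0 of all genes passed adjustment (smallest member adjusted p = 0.279). The pairs are thus not shown to differ gene by gene.

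**Figure D2:**
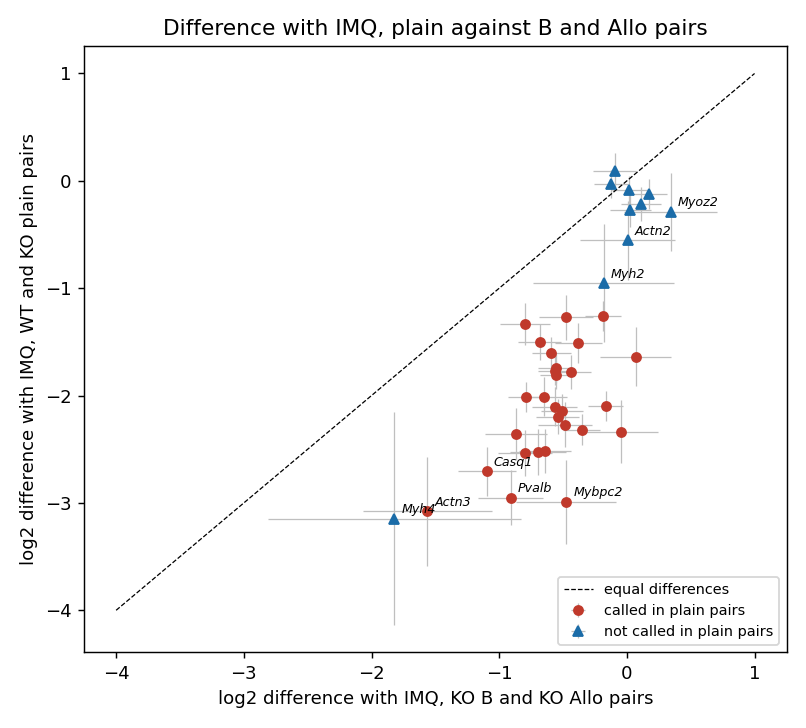
Log2 difference with IMQ of the 38 members in the plain pairs (vertical axis) against the KO B and KO Allo pairs (horizontal axis), with limma standard errors as bars and the dashed line where both are equal. Circles are the 28 members called in the plain pairs and triangles the 10 not called; 36 of 38 lie below the line, with Myh4 and Actn3 at the far lower left.

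Among thick filament genes, Myh1 fell with IMQ over the 4 pairs, and Myh2 and Myh4 were not called. Myh4, the chain of the fastest fibres, read 12.60 on WT_CTRL, 10.83 on WT_IMQ, 12.88 on KO_CTRL, 8.36 on KO_IMQ, 9.43 on KO_CTRL-B, 5.63 on KO_IMQ_B, 5.85 on KO_Allo and 6.00 on KO_IMQ_Allo. WT_CTRL and KO_CTRL were the highest, WT_IMQ, KO_CTRL-B and KO_IMQ followed in that order, and the last 3 lay near 6. Its pair differences were -1.77 in the WT pair, -4.52 in the KO plain pair, -3.79 in the KO B pair and 0.15 in the KO Allo pair. They did not share a direction, and the limma estimate over 4 pairs was -2.48 ± 0.71 (adjusted p = 0.123, not called). On KO_Allo, Myh4 without IMQ (5.85) was already below the median gene of that array (6.09). Whether low signal hid a fall in the KO Allo pair was not tested.

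Myh1, the neighbouring fast chain, read 11.46 on WT_CTRL, 9.75 on WT_IMQ, 11.33 on KO_CTRL, 10.04 on KO_IMQ, 11.06 on KO_CTRL-B, 10.21 on KO_IMQ_B, 10.58 on KO_Allo and 10.07 on KO_IMQ_Allo. The 4 arrays with IMQ all lay below the 4 without, although the gap between KO_IMQ_B and KO_Allo was small. Such a separation was seen for 6 members (Myh1, Myl1, Tnni2, Neb, Tcap and Mb) and for 5.04% of all genes. Of the 6, Myh1 had the widest gap. Neb read 10.07 on KO_IMQ and 10.08 on KO_Allo, and Tnni2 8.24 on KO_IMQ and 8.27 on KO_CTRL-B. The pair differences of Myh1 were -1.71 in the WT pair, -1.29 in the KO plain pair, -0.85 in the KO B pair and -0.52 in the KO Allo pair.

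Myh2, the chain of fast oxidative fibres, read 9.17 on WT_CTRL, 7.06 on WT_IMQ, 8.95 on KO_CTRL, 9.16 on KO_IMQ, 7.88 on KO_CTRL-B, 8.31 on KO_IMQ_B, 9.20 on KO_Allo and 8.39 on KO_IMQ_Allo. WT_IMQ was the lowest and the arrays with and without IMQ overlapped. Its pair differences were -2.12 in the WT pair, 0.21 in the KO plain pair, 0.44 in the KO B pair and -0.80 in the KO Allo pair, lower in 2 pairs and higher in 2. The myosin heavy chains are alike in sequence, and how far their probe sets pick up each other's transcripts was not tested.

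**Figure D3:**
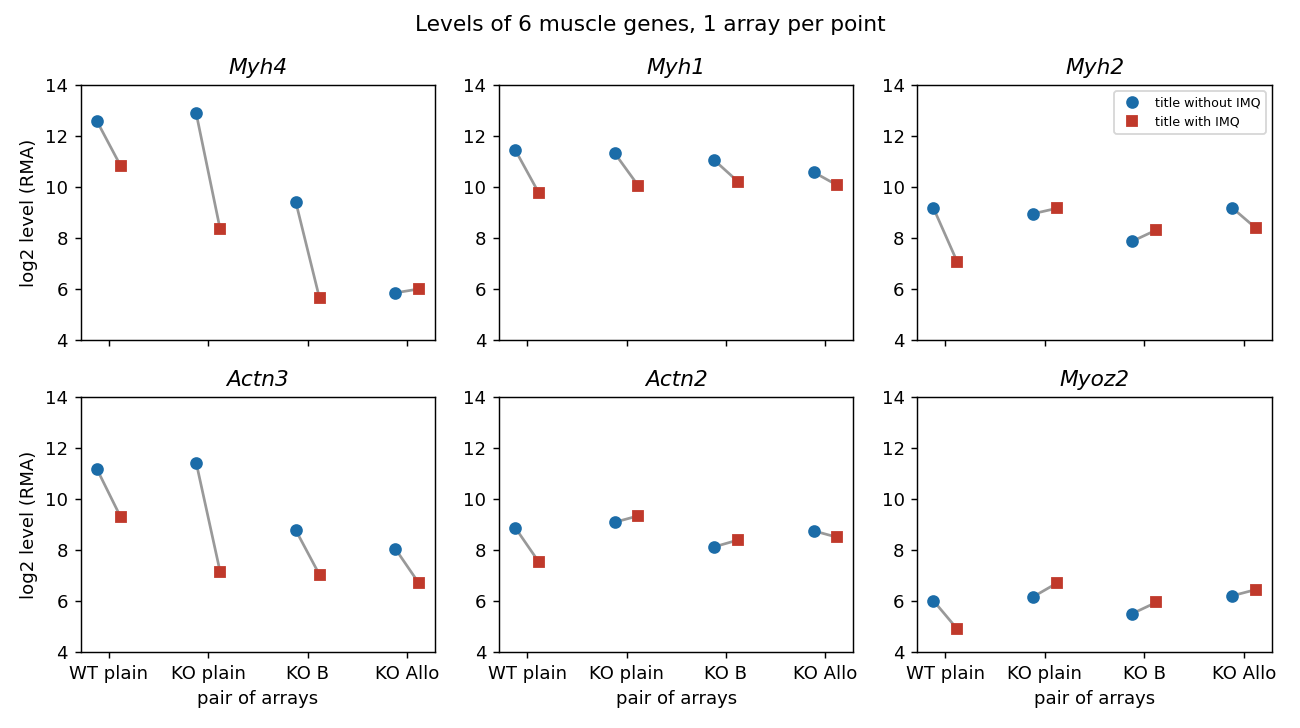
Log2 level (vertical axis) of Myh4, Myh1, Myh2, Actn3, Actn2 and Myoz2 in each pair of arrays (horizontal axis); circles are arrays without IMQ, squares arrays with IMQ, and a line joins each pair. Myh4 goes from 12.88 on KO_CTRL to 5.63 on KO_IMQ_B, while Myh1, Myh2, Actn2 and Myoz2 are lowest on WT_IMQ.

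The fast light chains moved with most of the members. Myl1, the essential light chain of fast fibres, read 9.35 on WT_CTRL, 7.45 on WT_IMQ, 9.76 on KO_CTRL, 7.37 on KO_IMQ, 7.64 on KO_CTRL-B, 7.10 on KO_IMQ_B, 7.62 on KO_Allo and 7.14 on KO_IMQ_Allo. WT_CTRL and KO_CTRL were the 2 high arrays, and the other 6 lay within 7.10 to 7.64. In the plain pairs its limma difference was -2.15 ± 0.16 (adjusted p = 0.0055), and that of Mylpf, the fast regulatory light chain, was -2.27 ± 0.21 (0.00894).

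The 2 genes for myosin binding proteins of the thick filament both fell in the plain pairs. Mybpc2, of fast fibres, read 9.99 on WT_CTRL, 7.88 on WT_IMQ, 10.23 on KO_CTRL, 6.36 on KO_IMQ, 7.15 on KO_CTRL-B, 6.42 on KO_IMQ_B, 5.77 on KO_Allo and 5.56 on KO_IMQ_Allo. It was at 7.88 on WT_IMQ and at 7.15 or lower on the other 5 low arrays. Mybpc1, of slow fibres and also made in fast ones, read 9.99 on WT_CTRL, 8.31 on WT_IMQ, 10.29 on KO_CTRL, 9.42 on KO_IMQ, 9.09 on KO_CTRL-B, 8.58 on KO_IMQ_B, 9.02 on KO_Allo and 8.58 on KO_IMQ_Allo, and KO_IMQ lay above KO_CTRL-B. The limma differences in the plain pairs were -2.99 ± 0.39 for Mybpc2 (adjusted p = 0.0231) and -1.27 ± 0.21 for Mybpc1 (0.0389). The slow chain Myh7 ranged from 5.19 to 5.63, its light chain Myl2 from 5.10 to 5.34 and Myl3 from 5.05 to 5.61, and none of the 3 was called in any comparison here.

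Of the thin filament genes, Acta1 read 12.33 on WT_CTRL, 10.49 on WT_IMQ, 12.51 on KO_CTRL, 10.85 on KO_IMQ, 10.94 on KO_CTRL-B, 10.33 on KO_IMQ_B, 10.77 on KO_Allo and 10.27 on KO_IMQ_Allo. WT_CTRL and KO_CTRL were above 12 and the other 6 arrays between 10.27 and 10.94. Neb, nebulin, the giant protein along the thin filament, read 11.56 on WT_CTRL, 9.77 on WT_IMQ, 11.89 on KO_CTRL, 10.07 on KO_IMQ, 10.14 on KO_CTRL-B, 9.54 on KO_IMQ_B, 10.08 on KO_Allo and 9.57 on KO_IMQ_Allo, with the same 2 arrays high. In the plain pairs the limma difference was -1.75 ± 0.14 for Acta1 (adjusted p = 0.0058) and -1.81 ± 0.13 for Neb (0.0055).

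The 3 fast troponin genes, the calcium switch of the thin filament, all fell in the plain pairs in limma. The difference was -2.20 ± 0.17 for Tnnt3 (adjusted p = 0.0055), -2.32 ± 0.15 for Tnni2 (0.0055) and -2.10 ± 0.18 for Tnnc2 (0.00721). Tpm2, beta tropomyosin, fell too (-1.26 ± 0.14, 0.0154). The slow troponins were not called in any comparison here. Tnnt1 ranged from 5.15 to 5.69, Tnni1 from 5.64 to 5.86 and Tnnc1 from 6.14 to 6.43 over the 8 arrays.

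At the Z disc, where thin filaments are anchored, Actn3 fell in the plain pairs and Actn2 was not called. Actn3, found in fast glycolytic fibres, read 11.19 on WT_CTRL, 9.30 on WT_IMQ, 11.42 on KO_CTRL, 7.16 on KO_IMQ, 8.79 on KO_CTRL-B, 7.03 on KO_IMQ_B, 8.07 on KO_Allo and 6.70 on KO_IMQ_Allo. WT_IMQ lay at 9.30 and the other 3 IMQ arrays at or below 7.16. Actn2, found in all fibres, read 8.89 on WT_CTRL, 7.53 on WT_IMQ, 9.09 on KO_CTRL, 9.35 on KO_IMQ, 8.13 on KO_CTRL-B, 8.40 on KO_IMQ_B, 8.76 on KO_Allo and 8.50 on KO_IMQ_Allo, with KO_IMQ the highest of all and WT_IMQ the lowest. The pair differences of Actn3 were -1.89 in the WT pair, -4.26 in the KO plain pair, -1.76 in the KO B pair and -1.37 in the KO Allo pair, and those of Actn2 were -1.36 in the WT pair, 0.25 in the KO plain pair, 0.27 in the KO B pair and -0.26 in the KO Allo pair. The limma differences in the plain pairs were -3.08 ± 0.51 for Actn3 (adjusted p = 0.0386) and -0.55 ± 0.37 for Actn2 (0.504). Whether the 2 genes differ from each other was not tested.

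The myozenins tether calcineurin at the Z disc. Myoz1, of fast fibres, fell in the plain pairs (-2.52 ± 0.21, adjusted p = 0.00658 in limma). Myoz2, of slow fibres, read 6.02 on WT_CTRL, 4.90 on WT_IMQ, 6.17 on KO_CTRL, 6.71 on KO_IMQ, 5.52 on KO_CTRL-B, 5.96 on KO_IMQ_B, 6.21 on KO_Allo and 6.45 on KO_IMQ_Allo. WT_IMQ was the lowest array and KO_IMQ the highest, and Myoz2 was lower with IMQ in the WT pair and higher in the 3 KO pairs. Opposite directions in WT and all KO pairs were seen in 10.3% of all genes. The mean level of Myoz2 (5.99) was below that of the median gene. The WT minus KO difference was -1.52 ± 0.23 in limma (adjusted p = 0.983). WT has 1 pair, so this error comes from the KO pairs and the prior over genes and assumes that WT varies alike.

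Ttn, titin, the molecular spring that spans the sarcomere from the Z disc to its middle, read 11.98 on WT_CTRL, 10.18 on WT_IMQ, 12.33 on KO_CTRL, 10.60 on KO_IMQ, 10.59 on KO_CTRL-B, 9.93 on KO_IMQ_B, 10.46 on KO_Allo and 9.99 on KO_IMQ_Allo. Only WT_CTRL and KO_CTRL exceeded 11. Its profile was among the 3 nearest to the median of all members, with Neb and Eno3, at a root mean square distance of 0.107 over 8 arrays, against 0.084 for Neb and 2.11 for Myh4, the farthest. In the plain pairs Ttn fell (-1.77 ± 0.14, adjusted p = 0.0055 in limma), as did Tcap, its Z disc cap (-1.60 ± 0.15, 0.00937), Myot, myotilin (-2.10 ± 0.14, 0.0055), and the Z disc scaffold Ldb3 (-1.51 ± 0.19, 0.0208).

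All 6 calcium handling genes fell in the plain pairs (all genes 1.53%). Casq1 read 10.52 on WT_CTRL, 8.17 on WT_IMQ, 10.81 on KO_CTRL, 7.75 on KO_IMQ, 7.87 on KO_CTRL-B, 7.07 on KO_IMQ_B, 7.79 on KO_Allo and 6.40 on KO_IMQ_Allo. WT_CTRL and KO_CTRL were above 10 and the rest between 6.40 and 8.17. Pvalb, parvalbumin, a calcium buffer of fast fibres, read 9.52 on WT_CTRL, 7.04 on WT_IMQ, 9.62 on KO_CTRL, 6.19 on KO_IMQ, 6.89 on KO_CTRL-B, 5.72 on KO_IMQ_B, 6.18 on KO_Allo and 5.53 on KO_IMQ_Allo, again with 2 high arrays and with WT_IMQ the next. Ryr1 read 10.18 on WT_CTRL, 8.21 on WT_IMQ, 10.34 on KO_CTRL, 8.28 on KO_IMQ, 8.55 on KO_CTRL-B, 7.62 on KO_IMQ_B, 8.09 on KO_Allo and 7.43 on KO_IMQ_Allo. The limma differences in the plain pairs were -2.71 ± 0.23 for Casq1 (adjusted p = 0.00716), -2.95 ± 0.26 for Pvalb (0.00732) and -2.01 ± 0.14 for Ryr1 (0.0055).

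Atp2a1, the pump that returns calcium to the store in fast fibres, differed by -2.36 ± 0.24 (adjusted p = 0.0122 in limma, plain pairs). Cacna1s, the voltage sensor of the muscle membrane, differed by -2.01 ± 0.18 (0.00822), and Trdn, triadin, which joins the release channel to the store protein, by -2.34 ± 0.29 (0.0211). Trdn read 10.82 on KO_CTRL and 9.84 on WT_CTRL, and between 7.43 and 8.15 on the other arrays. In the KO B and KO Allo pairs its differences were -0.11 and 0.01, so it stayed low with and without IMQ there. The dimmer second probe set of Ryr1 gave 6.65 on WT_CTRL and 6.56 on KO_CTRL, above the other 6 arrays (5.91 to 6.30).

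Among genes of energy supply, Mb, which stores oxygen in oxidative fibres, read 8.79 on WT_CTRL, 7.16 on WT_IMQ, 9.00 on KO_CTRL, 7.96 on KO_IMQ, 8.08 on KO_CTRL-B, 7.50 on KO_IMQ_B, 8.40 on KO_Allo and 7.39 on KO_IMQ_Allo. Its pair differences were -1.63 in the WT pair, -1.04 in the KO plain pair, -0.58 in the KO B pair and -1.02 in the KO Allo pair. The arrays with and without IMQ did not overlap, with KO_IMQ (7.96) little below KO_CTRL-B (8.08). Ckm, muscle creatine kinase, read 11.46 on WT_CTRL, 9.30 on WT_IMQ, 11.75 on KO_CTRL, 8.86 on KO_IMQ, 9.43 on KO_CTRL-B, 8.51 on KO_IMQ_B, 8.97 on KO_Allo and 8.51 on KO_IMQ_Allo. Its pair differences were -2.16 in the WT pair, -2.89 in the KO plain pair, -0.92 in the KO B pair and -0.47 in the KO Allo pair. The second probe set of Ckm read 7.46 on WT_CTRL and 7.62 on KO_CTRL, and 5.89 or lower on the other 6.

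The glycolytic members fell in the plain pairs in limma: Pygm, muscle glycogen phosphorylase (-2.53 ± 0.21, adjusted p = 0.00716), and Eno3, muscle enolase (-1.78 ± 0.16, 0.00782). Cox6a2, a respiratory chain subunit of heart and skeletal muscle, fell too (-1.64 ± 0.28, 0.0398). Cox6a2 was the 1 member higher by 1 or more (all genes 0.446%), and 0 were lower (0.893%), between KO_CTRL (9.38) and WT_CTRL (8.18). On the other 6 arrays it lay between 7.05 and 7.38.

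By fibre type, 11 of 13 fast members and 16 of 17 members shared by both fibre types fell in the plain pairs. Of 8 slow members 1 fell there, Mybpc1, which is also made in fast fibres. Of all genes, 1.53% fell there. The median level of fast members, each centred on its own mean, was 1.62 on WT_CTRL and 1.94 on KO_CTRL and between -1.08 and -0.19 on the other 6. That of the slow members stayed within -0.07 and 0.12. The difference with IMQ was lower in fast than in slow members by -1.43 ± 0.93 (SD, n = 4 pairs). Of the slow members, 6 had a range under 1, and the array does not show whether they were expressed.

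The single IMQ arrays of the 2 genotypes differed in members of several fibre types. On KO_IMQ 3 members were lower than on WT_IMQ by 1 or more (all genes 0.582%): Myh4 (-2.47), Actn3 (-2.14) and Mybpc2 (-1.51), all of fast fibres. On KO_IMQ 4 were higher by 1 or more (all genes 0.712%): Myh2 (2.11), Actn2 (1.82), Myoz2 (1.80) and Mybpc1 (1.11). Myh2 is of fast oxidative fibres, Actn2 of all fibres, Myoz2 of slow fibres, and Mybpc1 of slow fibres but also made in fast ones. The median of the 38 members was -0.01 there, so these members lay on both sides of the rest. The fibre classes did not move as wholes. The other slow members lay between -0.47 (Myl3) and 0.34 (Tnnt1). The other fast members lay between -0.85 (Pvalb) and 0.29 (Myh1). The 2 arrays have no replicate check.

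**Figure D4:**
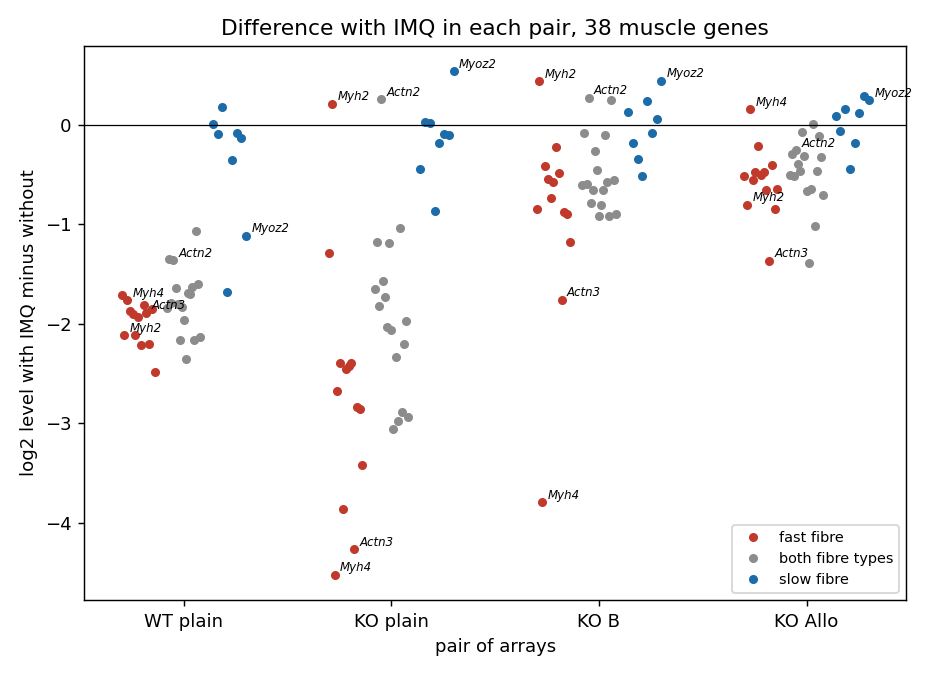
Log2 difference with IMQ (vertical axis) in each of the 4 pairs (horizontal axis), with 1 point per member: red for fast fibre genes, grey for genes of both fibre types and blue for slow fibre genes. Points lie near -1.80 in the WT pair and spread down to -4.52 (Myh4) in the KO plain pair, while 6 of the slow genes stay near 0.

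The series asks how genotype bears on the response to IMQ. In limma 0 members were called for IMQ in WT (1 pair, median -1.80, 26 at an unadjusted p under 0.05, all genes 10.8%) and 0 in KO (3 pairs, median -0.95, 24 unadjusted, all genes 13.9%). For the difference between them 0 were called (median -0.73, 6 unadjusted, all genes 4.12%, smallest adjusted p = 0.983). Of all genes, 0 were called in each. Of the 24 members with an unadjusted p under 0.05 in KO, 23 were lower and Myoz2 was higher (0.41 ± 0.12). The spread for the single WT pair is again that of the KO pairs. Myh2 differed between genotypes by -2.06 ± 0.51 and Actn2 by -1.45 ± 0.29, neither passing adjustment. Averaged over IMQ status, KO plain minus WT had a median of 0.12 over members. In limma 0 members were called for it and 3 had an unadjusted p under 0.05 (7.89%, against 6.29% of all genes). These 3, Actn2, Myoz2 and Mybpc1, were higher in KO plain.

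Among KO titles, KO_CTRL stood above the others. In limma KO B minus KO plain, averaged over IMQ status, had a member median of -1.10 (0 called, 21 unadjusted, all genes 7.45%) and KO Allo minus KO plain -1.20 (0 called, 25 unadjusted, all genes 7.63%). Of all genes, 0 were called in either. These share the KO plain arrays. Among arrays without IMQ, 28 members were lower by 1 or more on KO_CTRL-B than on KO_CTRL (all genes 1.38%) and 27 on KO_Allo (1.56%), and 0 were higher (all genes 1.46% and 1.6%). Among arrays with IMQ the gap was smaller. KO_IMQ_B minus KO_IMQ had a member median of -0.36, with Myh4 lower by 1 or more (1 member, all genes 0.293%). KO_IMQ_Allo minus KO_IMQ had a median of -0.50, with Myh4 and Casq1 lower (2 members, all genes 0.807%), and 0 were higher in either (0.622% and 0.676%). The median level on KO_IMQ, 7.87, was below those on KO_CTRL-B and KO_Allo. Against WT_CTRL the counts were 25 on KO_CTRL-B (0.609%) and 25 on KO_Allo (1.09%), with 0 higher (0.532% and 1.17%). KO_CTRL and KO_CTRL-B differ in their titles by the letter B alone, so alloferon and what B stands for cannot be told apart from a difference between KO_CTRL and the rest.

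Between the KO Allo and KO B arrays the member medians lay close. In limma KO Allo minus KO B had a member median of -0.08, with 0 members called, 0 at an unadjusted p under 0.05 (all genes 4.68%) and 0 of all genes called. On single arrays without IMQ, KO_Allo minus KO_CTRL-B had a median of -0.13, with 2 members lower by 1 or more (all genes 0.681%) and 1 higher (0.564%). The 3 were Myh4, Mybpc2 and Myh2. With IMQ, KO_IMQ_Allo minus KO_IMQ_B had 0 lower (0.771%) and 0 higher (0.5%). Myh4 lay at 5.85 on KO_Allo and 9.43 on KO_CTRL-B, and Myh2 was the member higher on KO_Allo (9.20 against 7.88). The limma difference for Myh4 was -1.60 ± 1.00 (adjusted p = 0.965).

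Other muscle genes were read from lists chosen with earlier results of these data known. In the plain pairs 1.53% of all genes fell, the share to set beside the counts of the next 3 lists. Of 23 other sarcomere genes, 15 fell in the plain pairs, with a median of -1.24. The largest differences were of Mylk4 (-3.63 ± 0.52) and Mylk2 (-2.25 ± 0.22), kinases of the myosin light chain family, Myom1, which crosslinks thick filaments (-2.22 ± 0.14), and Xirp2, an actin binding protein (-2.08 ± 0.16). Of 17 other excitation and calcium genes 10 fell (median -0.87), led by Srl, a luminal protein of the calcium store (-2.15 ± 0.15), and Jph1, which ties that store to the membrane (-1.79 ± 0.13). Of 17 other muscle metabolism genes 13 fell (median -1.47), with Ampd1, muscle AMP deaminase, at -2.99 ± 0.20. None of the genes in these 3 lists rose (all genes 1.7% in the plain pairs). In limma over all 4 pairs 1 was called, Cmya5 (-1.26 ± 0.23, all genes lower 1.19%).

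Of 12 myogenic regulators 3 fell in the plain pairs, where 1.53% of all genes fell. They were Mstn, myostatin, which restrains muscle growth (-3.77 ± 0.48), Myf6 (-1.39 ± 0.18) and Sox6, which represses slow fibre genes (-1.21 ± 0.22). Mstn read 8.15 on WT_CTRL, 4.81 on WT_IMQ, 8.72 on KO_CTRL, 4.53 on KO_IMQ, 5.56 on KO_CTRL-B, 3.94 on KO_IMQ_B, 3.36 on KO_Allo and 3.84 on KO_IMQ_Allo, so WT_CTRL and KO_CTRL were the high arrays. Of 5 atrophy genes, the ubiquitin ligases Fbxo32 (-1.70 ± 0.28) and Trim63 (-1.32 ± 0.17) fell. Of 8 embryonic and regeneration genes the perinatal myosin Myh8 fell (-1.25 ± 0.21). Over all 4 pairs 1.19% of all genes fell. Myh8 (-0.95 ± 0.18) and Foxo1, a transcription factor of the atrophy programme (-0.51 ± 0.10), were the genes called there in these 3 lists. Of 8 neuromuscular junction genes, 6 heart genes and 17 widely expressed paralogs 0 were called.

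The genes outside the lists with profiles nearest to the member median over the 8 arrays included known muscle genes. Prkaa2, a catalytic subunit of AMP-activated kinase, was nearest, at a root mean square distance of 0.049, followed by Mypn, a Z disc protein (0.118), Tmem182 (0.127), Pde4dip (0.137) and Hjv (0.155). Des, the intermediate filament protein of muscle, lay at 0.173, Tmem38a, an ion channel of the calcium store, at 0.199 and Pdlim3 at 0.203. The other 7 of the 15 nearest, Eef1a2, Pkia, Txlnb, Rtn2, Fsd2, Nexn and Npr3, lay between 0.170 and 0.218.

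Genes of other skin layers were read beside the muscle genes. White adipocyte genes, of the layer above the muscle, had centred medians of 0.83 on WT_CTRL and 0.92 on KO_CTRL and between -0.77 and 0.14 on the other arrays. In 9 of these 12 genes both arrays lay above the other 6 (all genes 9.26%). Car3 fell in the plain pairs (-1.34 ± 0.22, all genes lower 1.53%). Over the 4 pairs 1 of the 12 fell in limma (all genes 1.19%). Of 13 hair follicle genes, 11 fell over the 4 pairs in limma (all genes 1.19%) and 7 in the plain pairs (all genes 1.53%). The hair follicle medians followed another order, with 1.92 on WT_CTRL, 2.22 on KO_CTRL-B and -0.18 on KO_CTRL. The median of the macrophage genes lay at -0.77 on WT_CTRL, -0.80 on KO_CTRL, -0.54 on KO_CTRL-B and -0.34 on KO_Allo. It lay at 0.69 on WT_IMQ, 0.70 on KO_IMQ, 0.71 on KO_IMQ_B and 0.04 on KO_IMQ_Allo. Over the 4 pairs 4 of 6 macrophage genes rose in limma (Adgre1, Csf1r, Lyz2 and Itgam), as did 1.9% of all genes. The median of the smooth muscle genes stayed within -0.30 and 0.31. Of these genes, 7 of 10 were lower in all 4 pairs (all genes 14.3%), and Tagln fell over the 4 pairs (-0.83 ± 0.12, all genes lower 1.19%). The median of the fibroblast genes stayed within -0.26 and 0.45. The part of tissue composition in the muscle result was not tested.

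**Figure D5:**
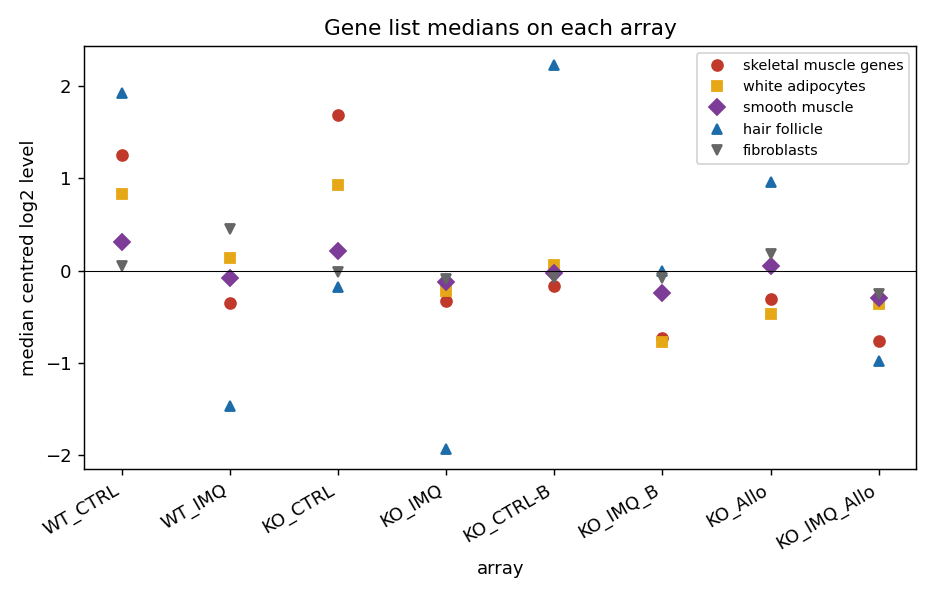
Median log2 level, each gene centred on its own mean over the arrays (vertical axis), of the 38 muscle genes and of 4 lists of other skin cells on each of the 8 arrays (horizontal axis). Muscle genes and white adipocyte genes are highest on WT_CTRL and KO_CTRL, and hair follicle genes on KO_CTRL-B (2.22) and WT_CTRL (1.92).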

How the data were processed

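The log2 values of 41345 probe sets were deposited by the authors and made by robust multi-array averaging (RMA), per the submitters' processing notes, which also name Affymetrix Power Tools and R 3.3.2 without a role. RMA puts all arrays on 1 distribution and compresses differences of dim genes. The platform annotation gave the gene names: 23521 probe sets had 1 symbol, 1814 several and 16010 none. The highest mean probe set stood for a gene (1082 had several), which gave 22180 genes, without a filter on dim genes.

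Tests used limma 3.58.1 in R 4.3.3 (lmFit, eBayes) with a level per pair and Benjamini-Hochberg adjustment over all genes, called under 0.05. The fit with 1 IMQ term left 3 residual degrees of freedom, and those with separate terms 2. The sources do not say that the arrays hold separate animals, so a p-value reflects only how these arrays vary, which may be technical. The number of arrays limits the precision. Scripts were tested on simulated data.

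The members, lists and the split into plain and other pairs were chosen with earlier results of these data known. The text names all members, the called genes of other lists or, beyond 5, those with the largest differences, and the 15 genes nearest in profile, clone-type symbols left out. Alternatives covered centring, quantile normalization, probe set choice, filters, priors, blocking and leaving out arrays or pairs.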

Additional observations from a re-analysis of the deposited data

Results flagged for a closer look

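Myoz2 had a pair difference of -1.11 in the 1 WT pair and of 0.54, 0.44 and 0.25 in the KO plain, KO B and KO Allo pairs. Its mean level (5.99) was below that of the median gene. The WT minus KO difference was -1.52 ± 0.23 in limma (adjusted p = 0.983). Opposite directions in WT and all KO pairs were seen in 10.3% of all genes and in 1 of 38 members.

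Tnnc1, the slow troponin C, was slightly lower with IMQ in both plain pairs (-0.14 and -0.11) and higher in the KO B and KO Allo pairs (0.06 and 0.29). The difference was -0.29 ± 0.19 in limma (adjusted p = 0.834). Such opposite directions were seen in 9.43% of all genes and in 1 of 38 members.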

How the results depend on the processing

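For the 4 pairs, 14 of 17 alternatives moved the count of 5 called members by over 1.5 times, and for the plain pairs 2 of 12 did. These totals hold each run that left out a pair once for each of its arrays, so they count the same fit again. Comparisons with 0 called members mostly stayed at 0, in fits where 0 or 1 of all genes passed, which says nothing about stability. Over the 4 pairs, 12 fell when only genes above the median level were tested, 2 with a trended robust prior, 2 without levels per pair and 2 with the pair as a random block (consensus correlation 0.098). Without the plain pairs 0 fell, and without the B and Allo pairs 29 did. Leaving out each pair in turn gave 0 to 19 members over the 4 pairs, 0 to 29 in the plain pairs (28 reported) and 0 to 1 for IMQ in KO (0 reported). Leaving out each array in turn gave 0 to 1 for KO B minus KO plain (0 reported). The causes of these shifts were not tested, beyond the loss of samples or genes. No called value changed direction. The leave-one-out runs for pair differences and for the separate terms were chosen after seeing the data. The titles carry no replicate numbers, and the fit is already paired by IMQ, with a level for each pair. Whether low signal limits the 6 slow members with a range under 1 was not tested.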
